A study of Mus musculus with 8 samples.

Results

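Chitinase-like proteins and ribonucleases of the eosinophil type are secreted products of mouse alveolar macrophages. They were described here in lung macrophages of mice with and without a CD11c-Cre deletion of the nuclear receptor PPARγ. The members were chosen by name: 7 genes (Chil3, Chil1, Rnase2a, Ear1, Ear2, Ear6 and Rnase4) were looked up in the annotation of the array platform, and a gene was kept where a probe set carried its symbol alone. This gave 4 of the 7 genes (Chil3, Chil1, Rnase2a and Ear6), of 18782 genes tested in all, each with 1 probe set. Ear1 and Ear2 had no entry, Rnase4 stood only on a probe set that carries several symbols, and these 3 were not analysed here. The rule itself used no comparison between groups (it would have taken the mean over the 8 arrays to choose between probe sets, but no member had more than 1), while the list of names was drawn up with results of these arrays known, so the tests below describe the members and are no independent support for them.

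Sorted mouse lung macrophages were profiled on 8 Affymetrix arrays in 4 groups of 2, all from C57BL/6 mice, each array holding RNA of cells pooled from 2 mice. KO day 11 cells came from CD11cCre/PPARg fl/fl mice 11 days after birth, and WT day 11 cells from PPARg fl/fl mice of that age. KO day 2 and WT day 2 cells came from mice of the same genotypes 2 days after birth. WT mice thus also carried the loxP-flanked Pparg gene and lacked only the recombinase, which the CD11c promoter drives in alveolar macrophages and in other CD11c-expressing cells such as dendritic cells. The day 11 gate took CD45+ cells with high CD11c, high autofluorescence and Siglec-F, with CD11b low in WT and high in KO. The day 2 gate took CD45+ cells positive for a macrophage surface antigen, with high CD11c, that were intermediate for Siglec-F and CD11b or low for Siglec-F and high for CD11b, and the labels do not say which of these went with which genotype. Genotype and gate therefore cannot be told apart. The labels call the day 2 cells preAM (arrested preAM in KO) and the day 11 cells mature AM in WT and arrested immature preAM in KO, where AM stands for alveolar macrophage. The gates differ between the ages too, so age, gate and the stage in the labels cannot be told apart either.

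Signals are log2 values after RMA, with a median over genes between 5.72 and 5.76 on each array. Pparg signal was 11.32 and 11.36 in KO day 11, 11.18 and 11.13 in WT day 11, 10.55 and 10.74 in KO day 2 and 10.89 and 11.01 in WT day 2. The labels do not say whether its probes lie inside the deleted part, so this is no check of the deletion. Fabp4, a fatty acid carrier and known PPARγ target, was between 5.90 and 6.39 on the 4 KO arrays and between 9.10 and 9.36 on the 4 WT arrays. The alveolar macrophage marker Marco, a scavenger receptor, was between 5.45 and 6.03 in KO and between 9.44 and 9.52 in WT, so the KO cells were low in a defining marker of the cell type in the labels. One KO day 2 array stood apart: the median of 26 interferon response genes was 9.20 on replicate 1 and 6.57 on replicate 2, against 5.55 to 6.07 on the other 6 arrays. Xist, expressed from the inactive X chromosome, was 3.46 on KO day 11 replicate 1 and 3.38 on WT day 2 replicate 2 and at least 9.85 on the other 6, so the pools differed in the sex of their mice.

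Chitinase-like proteins are relatives of chitinases that bind sugars but do not cut chitin. Chil3, known as Ym1, is secreted in large amounts by mouse macrophages in type 2 immunity, and by alveolar macrophages without infection. Chil1, known as BRP-39 and in humans as YKL-40, is made by macrophages, neutrophils and epithelium and acts on cell survival and tissue repair. The eosinophil-associated ribonucleases (Ear) are mouse members of the RNase A family, a cluster of closely related secreted enzymes. In humans, the related eosinophil-derived neurotoxin draws in dendritic cells and has antiviral activity.

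Chil3 and Rnase2a rose strongly with age in both genotypes, by 7.23-fold to 22.3-fold. Chil1 was highest in KO day 2 cells, 2.08-fold above WT cells of that age. Ear6 was lower in KO at both ages, by 1.49-fold at day 11 and 1.44-fold at day 2, with no call between ages. Chil3 was also lower in the KO at day 2, by 4.58-fold.

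**Figure D1:**
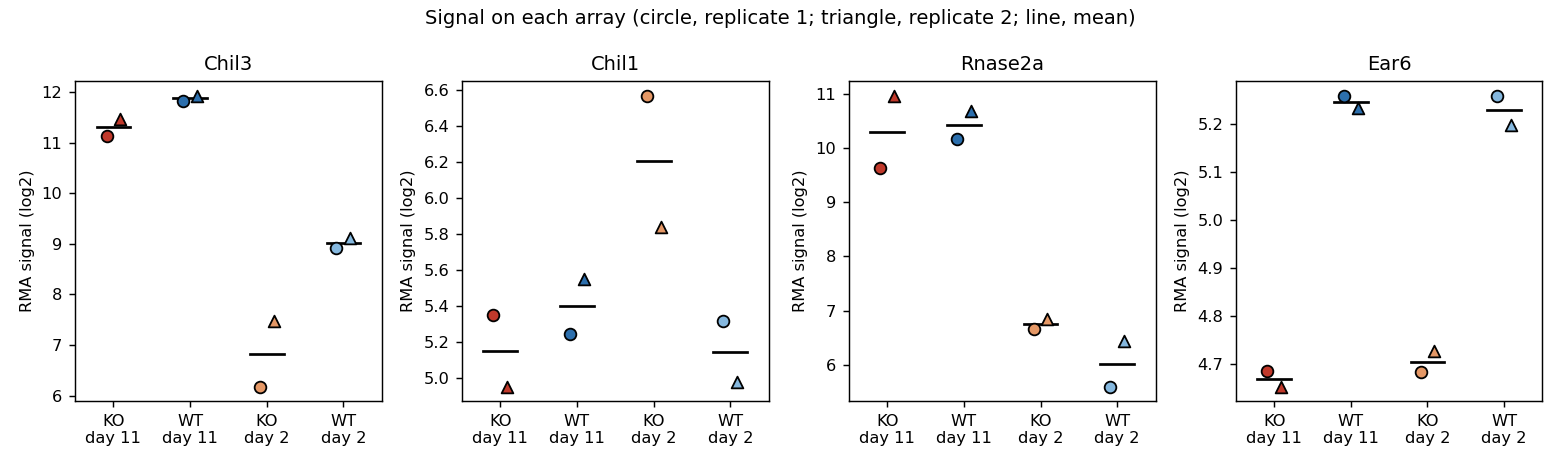
RMA signal (log2, vertical axes differ between panels) of Chil3, Chil1, Rnase2a and Ear6 on each of the 8 arrays, by group; circles are replicate 1, triangles replicate 2 and lines group means. Chil3 and Rnase2a were high on all 4 day 11 arrays, Chil1 was highest in KO day 2, and Ear6 was between 4.65 and 4.73 on the KO arrays and between 5.20 and 5.26 on the WT arrays.

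Chil3 lies on chromosome 3 at chr3:106147554-106167564 (GRCm38.p6). Its signal was 11.14 and 11.47 in KO day 11, 11.82 and 11.93 in WT day 11, 6.17 and 7.48 in KO day 2, and 8.92 and 9.12 in WT day 2. WT day 11 stood highest, then KO day 11, then WT day 2, with KO day 2 lowest, and no 2 of the 4 groups overlapped. At day 2 the difference of KO from WT was -2.20 ± 0.35 (SE on the log2 scale, n = 2 arrays per group, limma adjusted p = 0.00329). Fewer cells of a Chil3-expressing type and less Chil3 RNA per cell cannot be told apart in such pooled samples. The 2 KO day 2 pools differed from each other by 1.30, the widest gap between replicates of this gene. Replicate 1, with the higher interferon median, had the lower Chil3 signal, and the part of that difference in the result was not tested. Without replicate 1 the KO minus WT difference was -1.54 (adjusted p = 0.000613) and without replicate 2 it was -2.85 (adjusted p = 2.76e-05).

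At day 11 KO minus WT for Chil3 was -0.57 ± 0.35 (adjusted p = 0.352). The groups did not overlap, yet the difference did not pass the test. Its error rests on the spread shared by all 4 groups, to which the KO day 2 pair contributes most. With either KO day 2 array left out, the same difference of -0.57 had an SE of 0.12 and an adjusted p of 0.0145, and with only the 4 day 11 arrays an SE of 0.12 and an adjusted p of 0.0232.

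With age, Chil3 rose in both genotypes. Day 11 minus day 2 was 4.48 ± 0.35 in KO (22.3-fold, adjusted p = 0.000253) and 2.85 ± 0.35 in WT (7.23-fold, adjusted p = 0.00488). The WT call was lost without WT day 2 replicate 1 (2.76, adjusted p = 0.0548). The genotype difference changed by 1.63 ± 0.50 between the ages, from the test of that change itself (adjusted p = 0.15), and a larger rise in KO than in WT was therefore not called. The change was 0.97 without KO day 2 replicate 1 (adjusted p = 0.0517) and 2.28 without KO day 2 replicate 2 (adjusted p = 0.00106).

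Chil1 lies on chromosome 1 at chr1:134182156-134190031 (GRCm38.p6). Its signal was 5.35 and 4.95 in KO day 11, 5.25 and 5.55 in WT day 11, 6.57 and 5.84 in KO day 2, and 5.32 and 4.98 in WT day 2. Only the KO day 2 arrays stood apart, and the other 3 groups overlapped each other. The mean of Chil1 over the 8 arrays, 5.475, was below the median gene (5.76), and a stricter filter on low values removed the gene. At day 2 the gene was higher in KO by 1.05 ± 0.25 (adjusted p = 0.0201), and in KO it was lower at day 11 than at day 2 by a difference of -1.05 ± 0.25 (adjusted p = 0.0267). In WT cells day 11 minus day 2 was 0.25 ± 0.25 (adjusted p = 0.626), and at day 11 KO minus WT was -0.25 ± 0.25 (adjusted p = 0.598). The change of the genotype difference between ages was -1.30 ± 0.35 (adjusted p = 0.108), and without KO day 2 replicate 2 it was called (-1.67, adjusted p = 0.016). The day 2 call was lost without KO day 2 replicate 1 (0.69, adjusted p = 0.0681) and without WT day 2 replicate 2 (0.88, adjusted p = 0.136), and the KO age call without KO day 2 replicate 1 (-0.69, adjusted p = 0.096) and without KO day 11 replicate 2 (-0.85, adjusted p = 0.143).

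The KO day 2 array with the higher Chil1 signal, replicate 1, was the one with the higher interferon median. Chil1 is known in neutrophils, and the summed signal of 16 neutrophil markers was 11.74 to 11.76 in KO day 2, against 10.36 to 10.41 in WT day 2. Of these markers 9 were called higher and 2 lower in KO at day 2, where 20.1% of all genes were called. S100a8, a calcium-binding protein of neutrophils and monocytes, was 8.87 and 8.59 in KO day 2 and 8.12 and 7.94 in WT day 2. Markers of alveolar epithelium, another known source of Chil1, summed to 12.21 to 12.23 in KO day 2 and 11.75 to 11.76 in WT day 2, with 2 of 18 called higher and 2 lower. At day 11, where Chil1 was not called, the neutrophil sum was 11.56 to 11.63 in KO and 10.55 to 10.64 in WT. Of the 16 neutrophil markers, however, 2 were called higher and 3 lower in KO at day 11, where 18.6% of all genes were called. Their median signal was 4.91 and 4.96 in KO day 11 and 5.02 and 4.90 in WT day 11. The epithelial sum was 12.12 to 12.14 in KO day 11 and 11.67 to 11.83 in WT day 11, yet 2 of 18 markers were called higher and 5 lower in KO. The part of these cell types in the Chil1 difference was not tested.

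**Figure D2:**
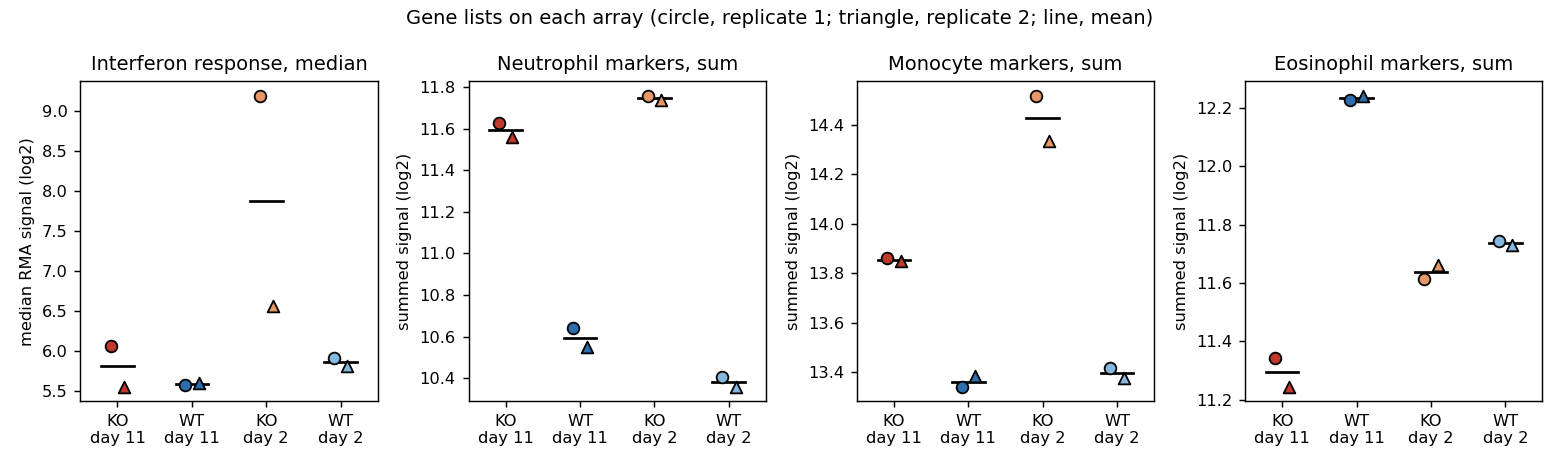
Gene lists on each of the 8 arrays: the median signal (log2) of 26 interferon response genes and the log2 of the summed signal of 16 neutrophil, 16 monocyte and 12 eosinophil markers; circles are replicate 1, triangles replicate 2 and lines group means. KO day 2 replicate 1 has the highest interferon median (9.20), and neutrophil sums lie between 11.56 and 11.76 in KO and between 10.36 and 10.64 in WT. Of the 16 neutrophil markers, 2 were called higher and 3 lower in KO at day 11, and 9 higher and 2 lower at day 2.

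Rnase2a, formerly Ear11, lies on chromosome 14 at chr14:51255261-51256112 (GRCm38.p6). Its signal was 9.64 and 10.97 in KO day 11, 10.16 and 10.68 in WT day 11, 6.67 and 6.85 in KO day 2, and 5.59 and 6.44 in WT day 2. All day 11 arrays lay well above all day 2 arrays, and the 2 genotypes overlapped at day 11. Day 11 minus day 2 was 3.54 ± 0.43 in KO (11.7-fold, adjusted p = 0.00182) and 4.41 ± 0.43 in WT (21.2-fold, adjusted p = 0.00172), and both calls held under each of the 16 alternatives tried. The difference between these 2 rises was -0.86 ± 0.60 (adjusted p = 0.54), and with single arrays left out it lay between -0.20 (without KO day 11 replicate 1) and -1.53 (without KO day 11 replicate 2). KO minus WT was -0.12 ± 0.43 at day 11 (adjusted p = 0.913) and 0.75 ± 0.43 at day 2 (adjusted p = 0.288). The day 2 value was 0.33 without WT day 2 replicate 1 and 1.17 without WT day 2 replicate 2. With these errors the values do not show that the genotypes were alike. The KO day 11 pair differed by 1.33 within the group, and without its replicate 1 the day 11 difference turned to 0.55 (adjusted p = 0.4).

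Ear6 lies on the same chromosome at chr14:51853768-51854643 (GRCm38.p6). Its signal was 4.69 and 4.65 in KO day 11, 5.26 and 5.24 in WT day 11, 4.68 and 4.73 in KO day 2, and 5.26 and 5.20 in WT day 2. The 4 KO arrays lay below the 4 WT arrays with no overlap, and within a genotype the ages overlapped. KO minus WT was -0.58 ± 0.06 at day 11 (adjusted p = 0.00043) and -0.52 ± 0.06 at day 2 (adjusted p = 0.000678). Both calls held under each of the 15 alternatives in which the gene was tested. Day 11 minus day 2 was -0.04 ± 0.06 in KO and 0.02 ± 0.06 in WT (adjusted p = 0.776 and 0.903). The mean over the 8 arrays, 4.96, was below the median gene (5.76), so this is a small difference at low signal, and a stricter filter on low values removed the gene.

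The RNase A cluster holds near-identical copies, and the arrays give 1 signal per probe set whichever copy bound it. Rnase2a and Ear6 values are therefore uncertain as to which gene they measure. Beside the RefSeq transcript of Ear6, the Ear6 probe set lists a further RefSeq accession that the gene table used here does not hold. The degree of relation can be seen in the promoters, of which RefSeq windows (GRCm38.p6, 250 bases before to 50 after the start) were at hand. Rnase2a and Ear6 windows were identical at 249 of 278 aligned bases (89.6%), and those of Ear1 and Ear2, not analysed here, at 98.7%. The 250 bases before the start are shown for Rnase2a (chr14:51256113-51256362, minus strand) and Ear6 (chr14:51853518-51853767, plus strand), because this pair had such unlike values over age. Capitals mark their longest unbroken shared run, of 56 bases.
Rnase2a: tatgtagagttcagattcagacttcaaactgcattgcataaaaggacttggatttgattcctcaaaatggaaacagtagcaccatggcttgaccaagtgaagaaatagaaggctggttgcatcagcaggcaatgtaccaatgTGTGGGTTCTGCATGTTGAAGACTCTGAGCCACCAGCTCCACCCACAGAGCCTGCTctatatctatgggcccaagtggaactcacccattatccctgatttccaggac
Ear6: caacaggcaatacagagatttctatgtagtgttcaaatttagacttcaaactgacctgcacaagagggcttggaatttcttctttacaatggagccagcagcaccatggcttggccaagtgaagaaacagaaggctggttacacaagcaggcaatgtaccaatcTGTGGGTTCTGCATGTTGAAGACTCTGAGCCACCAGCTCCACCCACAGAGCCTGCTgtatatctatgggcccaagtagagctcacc
The shared run covers positions -108 to -53 from the annotated start in Rnase2a and -86 to -31 in Ear6. The 2 promoters were thus near copies of each other. The signal of the Rnase2a probe set rose with age in both genotypes, and that of Ear6, at low level, did not pass the test in either. Promoter identity does not show which transcripts each probe set bound, and a link between promoter and signal was not tested.

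Chil3 has a neighbour copy on chromosome 3, Chil4 (Ym2), whose window was identical to that of Chil3 at 251 of 273 aligned bases (91.9%). Chil4 signal was 4.29 and 4.38 in KO day 11, 4.16 and 5.06 in WT day 11, 3.41 and 3.70 in KO day 2, and 3.57 and 3.59 in WT day 2. Day 11 minus day 2 was 0.78 ± 0.25 in KO (adjusted p = 0.0728) and 1.02 ± 0.25 in WT (adjusted p = 0.0563), neither of them called. How far Chil3 RNA bound the Chil4 probes was not tested. The pair is shown because both sit beside each other, at chr3:106167565-106167814 for Chil3 and chr3:106219480-106219729 for Chil4, minus strand. Capitals mark the longest shared run, of 44 bases.
Chil3: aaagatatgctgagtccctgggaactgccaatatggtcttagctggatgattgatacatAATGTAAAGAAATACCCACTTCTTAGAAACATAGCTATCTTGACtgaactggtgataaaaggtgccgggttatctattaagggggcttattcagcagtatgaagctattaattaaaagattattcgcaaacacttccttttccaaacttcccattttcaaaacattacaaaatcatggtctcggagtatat
Chil4: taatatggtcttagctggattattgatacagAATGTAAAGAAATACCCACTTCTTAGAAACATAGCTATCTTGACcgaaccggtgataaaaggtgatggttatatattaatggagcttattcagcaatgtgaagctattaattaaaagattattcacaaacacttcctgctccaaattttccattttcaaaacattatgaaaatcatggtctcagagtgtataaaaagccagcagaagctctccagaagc
A TATA box core (TATAAA) covers positions -31 to -26 in Chil4 and -3 to 3 in Chil3, so on their shared sequence the 2 annotated starts lie apart.

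A set of 6 motifs was searched on both strands of the 300-base windows of 9 genes: Chil3, Chil1, Chil4, Rnase2a, Rnase2b, Ear1, Ear2, Ear6 and Ear10. The direct repeat bound by PPARγ with RXR (2 copies of AGGTCA with 1 base between them) matched in none of the 9, and in 0.0396% of 32851 promoter windows of all genes. A single AGGTCA, which the repeat contains and which was found in 16.3% of windows, matched in Ear6 at positions -199 to -194, on the strand opposite to the gene. The C/EBP core TTGCNNAA, present in 10.8% of windows, matched in 6 genes, Rnase2a (positions -217 to -210), Chil4, Rnase2b, Ear1, Ear2 and Ear10. The PU.1 core GAGGAA, present in 28.3% of windows, matched in Rnase2a at -193 to -188 on the opposite strand, and the STAT6 palindrome (TTC and GAA with 4 bases between them), present in 6.95%, matched in none. Chil1 held no match to any of the 6. These are matches of letters within a short window and not measured sites.

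The members' calls can be set beside those of all genes. Between genotypes at day 11, 1 of 4 members was called (Ear6, lower), where 18.6% of all genes were called, 9.34% higher and 9.29% lower. At day 2, 3 of 4 were called, 1 higher (Chil1) and 2 lower (Chil3 and Ear6), where 20.1% of all genes were called, 8.86% higher and 11.2% lower. With age in KO cells, 3 of 4 were called, 2 higher (Chil3 and Rnase2a) and 1 lower (Chil1), where 15.5% of all genes were called, 8.81% higher and 6.71% lower. With age in WT cells, 2 of 4 were called, both higher (Chil3 and Rnase2a), where 5.3% of all genes were called, 2.81% higher and 2.49% lower. Groups of 2 arrays often fail to overlap: 2 of 4 members did not overlap between genotypes at day 11, against 56.3% of all genes, and 4 of 4 at day 2, against 58.2%. With age it was 3 of 4 in KO, against 53.8% of all genes, and 2 of 4 in WT, against 53.9%. For the change of the genotype difference between ages, limma called 0 of 4 members and 3.27% of all genes. There 2 members, Chil3 and Chil1, had an unadjusted p under 0.05 (0.0116 and 0.0062). The comparisons share arrays, so their counts are not independent. The median log2 difference of the 4 members was -0.41 at day 11 between genotypes, 0.11 at day 2, 1.75 with age in KO and 1.55 with age in WT, where the median of all genes lay between -0.03 and 0.01.

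**Figure D3:**
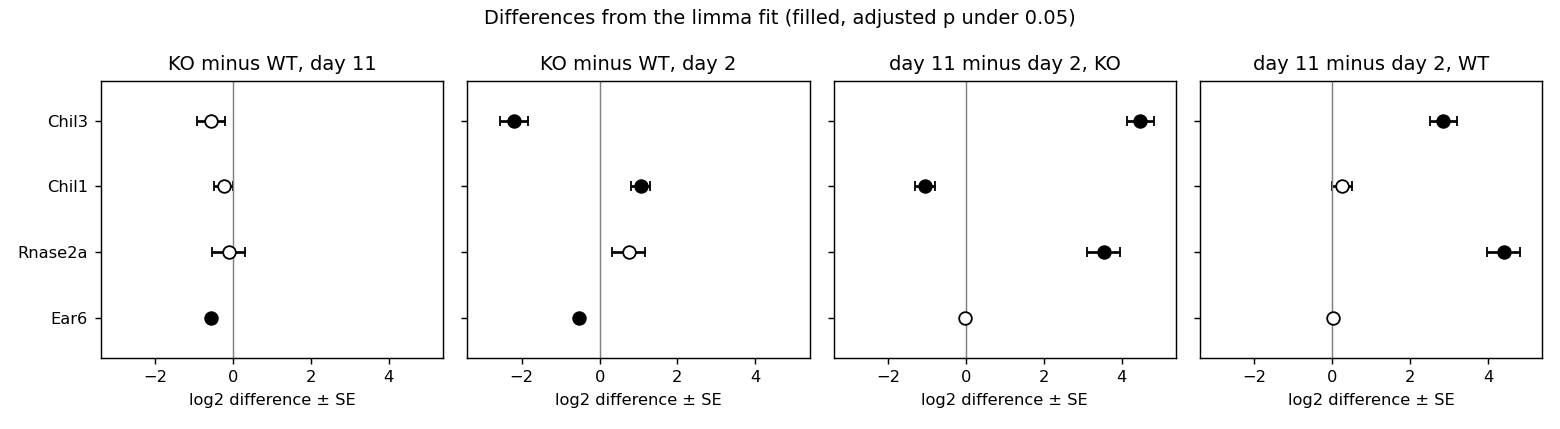
Log2 differences with SE (horizontal axis) of the 4 members in 4 comparisons; filled points have a limma adjusted p under 0.05. The largest are the rises with age of Chil3 (4.48 in KO, 2.85 in WT) and Rnase2a (3.54 in KO, 4.41 in WT), and the Ear6 differences between genotypes (-0.58 and -0.52) are small with small errors.

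Of 9 measured chitinase family genes, the members included, 1 was called higher and none lower at day 11, and 1 higher (Chil1) and 1 lower (Chil3) at day 2. The shares of all genes called were 18.6% at day 11 and 20.1% at day 2, so these counts do not set the family apart. The day 11 call was Chid1, a lysosomal chitinase domain protein, at 0.44 ± 0.09 (adjusted p = 0.0133). Chid1 was 8.08 and 7.94 in KO day 11 and 7.51 and 7.64 in WT day 11, without overlap. Its call was lost without KO day 11 replicate 1 (0.37, adjusted p = 0.0808) and without WT day 11 replicate 1 (0.37, adjusted p = 0.0975). The enzymes that cut chitin, Chit1 and Chia1, were not called, with KO minus WT of -0.01 ± 0.08 and -0.20 ± 0.08 at day 11 and 0.00 ± 0.08 and -0.09 ± 0.08 at day 2. Both were at low signal: Chit1 lay between 3.97 and 4.12 and Chia1 between 4.25 and 4.57 on the 8 arrays, below the median gene (5.76).

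Among 14 measured RNase A family genes, Rnase6 had the largest difference between genotypes at day 2. It encodes an antimicrobial ribonuclease of monocytes and macrophages. Its signal was 5.56 and 5.54 in KO day 11, 5.57 and 5.64 in WT day 11, 8.02 and 7.66 in KO day 2, and 5.50 and 5.63 in WT day 2. Both KO day 2 arrays lay far above the other 6, which stayed within a narrow range. KO minus WT was -0.06 ± 0.11 at day 11 (adjusted p = 0.814) and 2.27 ± 0.11 at day 2 (4.82-fold, adjusted p = 1.51e-05), and day 11 minus day 2 in KO was -2.29 ± 0.11 (adjusted p = 3.37e-05). Summed markers of monocytes were 14.34 to 14.52 in KO day 2, against 13.38 to 13.42 in WT day 2, with 12 of 16 called higher. Dendritic cell markers summed to 13.47 to 13.53 in KO day 2, against 10.75 to 10.79 in WT day 2, with 10 of 16 called higher. At day 11, where Rnase6 was not called, the monocyte sum was 13.85 to 13.86 in KO and 13.34 to 13.38 in WT, and the dendritic cell sum 11.46 to 12.12 in KO and 11.05 to 11.14 in WT. Of the monocyte markers 6 were called higher and 3 lower in KO at day 11, and of the dendritic cell markers 2 higher and 0 lower. The monocyte list includes Itgam, the gene of CD11b, on which the cells were gated. Itgam was 10.86 and 10.66 in KO day 11 and 6.22 and 6.32 in WT day 11. The part of these cell types in the Rnase6 result was not tested. Of the family, the members included, 1 gene was called lower (Ear6) and none higher at day 11, where 18.6% of all genes were called. At day 2, where 20.1% of all genes were called, 1 was called higher (Rnase6) and 2 lower (Ear6 and Ang4). These counts do not set the family apart. Ang4, an angiogenin with antimicrobial action, had a difference of -0.20 ± 0.06 at day 2 (adjusted p = 0.0476). That call was lost under 12 of 15 alternatives. Rnase2b, a close relative of Rnase2a, lay between 3.55 and 4.18 on the 8 arrays. None of its comparisons was called.

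**Figure D4:**
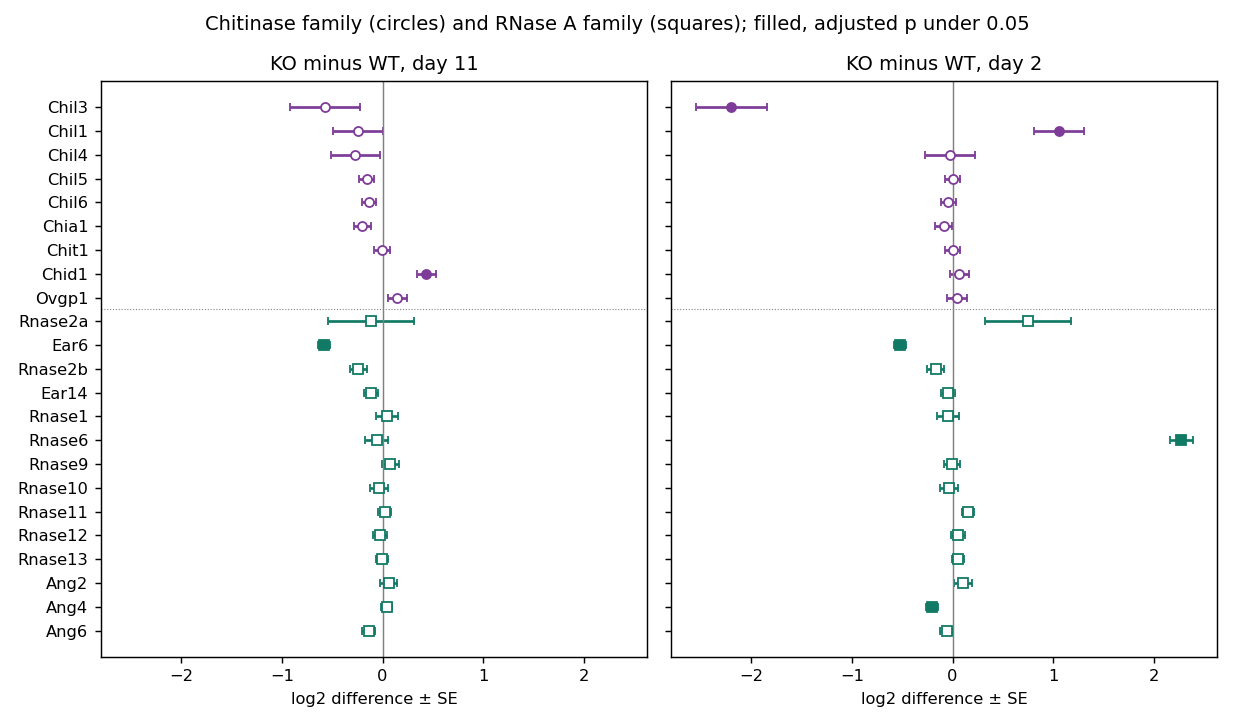
Log2 difference of KO minus WT with SE (horizontal axis) for 9 chitinase family genes (circles) and 14 RNase A family genes (squares) at day 11 and day 2; filled points have a limma adjusted p under 0.05. Rnase6 stands out at day 2 (2.27) with Chil3 on the other side (-2.20), and Ear6 is called at both ages.

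Eosinophils are a known source of the Ear ribonucleases and would carry other granule genes. Epx, eosinophil peroxidase, was between 3.499 and 3.77 on the 8 arrays, and Prg2, the major basic protein, between 3.65 and 3.86. Prg3 lay between 4.03 and 4.33 and the eotaxin receptor gene Ccr3 between 3.92 and 4.35. These 4 granule and receptor genes were below the median gene on every array, and none was called in any of the 4 comparisons. The summed signal of 12 eosinophil markers was 11.24 to 11.34 in KO day 11, 12.23 to 12.24 in WT day 11, 11.62 to 11.66 in KO day 2 and 11.73 to 11.74 in WT day 2. Of the 12 markers, 1 was called higher and 2 lower in KO at day 11, and 3 higher and 2 lower at day 2. With age 1 was called higher and 2 lower in KO, and 1 higher and 1 lower in WT. Of all genes, 18.6% were called between genotypes at day 11 and 20.1% at day 2. With age 15.5% of all genes were called in KO and 5.3% in WT. The part of eosinophils in the ribonuclease values was not tested. The list includes Siglecf, which alveolar macrophages also express and on which the cells were gated.

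Receptors and other partners of these proteins were also counted. Of all genes, 18.6% were called between genotypes at day 11 and 20.1% at day 2. Of 7 measured genes linked to chitinase-like proteins, 1 was called higher and 1 lower in KO at day 11, and 3 higher and 1 lower at day 2, and none with age in either genotype. Of the 3 higher at day 2, the call of Tmem219, a receptor of Chil1 (0.22, adjusted p = 0.0428), was kept in only 3 of 16 alternatives. That of Clec7a, a receptor for fungal sugars (0.31, adjusted p = 0.0131), was lost without KO day 2 replicate 1 (adjusted p = 0.0642) and without WT day 2 replicate 2 (adjusted p = 0.0912). Il13ra1, a chain of the IL-13 receptor, was higher in KO by 0.72 ± 0.08 at day 11 and 0.65 ± 0.08 at day 2 (limma adjusted p 0.000531 for day 11, 0.000839 for day 2). Ager, the receptor RAGE, was lower by differences of -0.88 ± 0.11 and -0.57 ± 0.11 (adjusted p 0.00113 for day 11, 0.00905 for day 2). Ager is also on the list of alveolar epithelium markers, and the part of epithelium in its values was not tested. The day 2 Ager call was lost without either WT day 2 array (-0.55 and -0.59, adjusted p = 0.061 and 0.0502). Of 10 measured genes linked to ribonucleases, 4 were higher and 1 lower at day 11, and 4 higher and 2 lower at day 2. Among these 4, the call of Pld4, an exonuclease for nucleic acids (0.30 at day 2), was kept in 7 of 16 alternatives, and that of Tlr3, a receptor for double-stranded RNA (0.42 at day 2), was lost without WT day 2 replicate 2 (adjusted p = 0.0603). At day 11 Tlr3 was higher in KO by 0.65 ± 0.08 (limma adjusted p = 0.000891), a call kept in 16 of 16 alternatives. Plxnb2, the receptor of angiogenin, was higher in KO by 1.35 ± 0.07 at day 11 and 1.06 ± 0.07 at day 2 (limma adjusted p 1.6e-05 for day 11, 3.89e-05 for day 2). Tlr13, a receptor for bacterial RNA, was higher in KO by 0.67 ± 0.06 and 0.35 ± 0.06 (limma adjusted p 0.000274 for day 11, 0.0062 for day 2). Tlr8, of the same list, was lower in KO, by -0.595 ± 0.07 at day 11 and -0.286 ± 0.07 at day 2. Its limma adjusted p was 0.000947 for day 11 and 0.0286 for day 2. These Tlr8 calls were not tried under the alternatives.

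Chil3 is often read with other genes of alternative activation, the state that IL-4 and IL-13 induce in macrophages. Of 23 such genes measured, 8 were higher and 4 lower in KO at day 11, where 18.6% of all genes were called. At day 2, where Chil3 was lower and 20.1% of all genes were called, 14 were higher and 2 lower. Several of these genes are also expressed by dendritic cells and monocytes, whose markers were higher in KO at day 2 in 10 of 16 and 12 of 16 cases. Cd209a, a lectin gene among the dendritic cell markers, was 8.81 and 9.63 in KO day 2 and 5.26 and 5.57 in WT day 2. Their part in these counts was not tested. The transcription factor gene Irf4 was higher in KO by 1.93 ± 0.30 at day 11 and 4.04 ± 0.30 at day 2 (limma adjusted p 0.00318 for day 11, 8.85e-05 for day 2). At day 2 the lectin gene Mgl2 was higher in KO by 3.42 ± 0.30 and Arg1, arginase 1, by 2.75 ± 0.56 (limma adjusted p = 0.000171 and 0.0107). The Arg1 call was lost without either WT day 2 array (differences of 2.776 and 2.727) and under limma's trend and robust option (adjusted p = 0.0823). Ccl17, a chemokine of this state, was lower in KO at day 11, at 8.09 and 8.92 in KO against 10.41 and 10.98 in WT (-2.19 ± 0.26, adjusted p = 0.000845). At day 2 Ccl17 was higher in KO, at 9.75 and 9.73 in KO against 8.64 and 8.53 in WT (1.16 ± 0.26, adjusted p = 0.0175), and the change of the genotype difference was -3.35 ± 0.37 (adjusted p = 0.00418). Over age, 4 genes of the list rose and 7 fell in KO, where 15.5% of all genes were called. In WT 3 rose and 1 fell, where 5.3% of all genes were called.

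Genes with the most similar pattern were sought by the root mean square difference over the 8 arrays, after centring each gene on its own mean, among 16384 named genes. The nearest to Chil3 were Slc9a4, Coro6 and Lipf at 1.01, 1.01 and 1.03 log2 units, where Chil3 itself varied by 2.03 about its mean. The nearest to Rnase2a were Pdk4 at 0.75, Sorbs3 at 0.89 and Fbp1 at 1.01, against 2.05 for Rnase2a itself. Chil1, varying by 0.49, had Fcgr1, Stfa3 and Sp100 at 0.16, 0.18 and 0.19. Fcgr1 was 8.99 and 8.69 in KO day 11, 8.92 and 8.93 in WT day 11, 10.21 and 9.55 in KO day 2, and 8.97 and 8.98 in WT day 2, with replicate 1 the higher KO day 2 array, as for Chil1. Ear6, varying by 0.28, had Cenpb, Slc25a1 and Dnttip2 at 0.04, 0.05 and 0.05.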

How the data were processed

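RNA of sorted lung macrophages was hybridised to Affymetrix whole-transcript arrays, per the labels' protocols. Per the submitters' processing notes, the authors used RMA (R 2.15.2). The deposited log2 signals cover 28874 probe sets, and the arrays share 1 distribution (largest gap at a rank 0.026), so a shift of all genes cannot be seen. No detection calls came with them, and 2 arrays a group limit the precision.

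Of the probe sets, 21159 had 1 symbol in the platform annotation, 1881 several and 5834 none. The first were named through RefSeq by Entrez ID (21129 matched), and the probe set with the highest mean was kept, which left 18782 genes. Limma 3.58.1 in R 4.3.3 was fitted over all 8 arrays with 1 mean per group, as checked on simulated data, and adjusted p-values are limma's after Benjamini-Hochberg adjustment over all genes, called under 0.05. Python 3.11.15 served for the rest. Replicates are separate pools of 2 mice, and p-values measure the spread between pools. No litter or day shared by same-numbered arrays is known, and their deviations correlated with r from -0.0754 to 0.25 across genes. For Chil3 and Rnase2a, however, replicate 2 was the higher array in each group. A fit with replicate number as a block lowered the SE of KO minus WT at day 2 from 0.351 to 0.264 for Chil3. For Rnase2a that SE went from 0.427 to 0.235, and the difference stayed uncalled (limma adjusted p = 0.0701).

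The members and gene lists were chosen with earlier results of these data known. All measured genes of both families could be named, up to 4 called genes per comparison from the partner and activation lists, and the 3 nearest genes to each member. Of 225 list entries, 25 matched no gene tested. Alternatives were another scaling, a filter on low values, another probe set rule, another prior, fewer arrays, Xist as a covariate, the replicate block and each array left out.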

Additional observations from a re-analysis of the deposited data

Results flagged for a closer look

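The genotype difference of Rnase6 was not the same at the 2 ages. KO minus WT was -0.06 ± 0.11 at day 11 and 2.27 ± 0.11 at day 2 on the log2 scale (SE, n = 2 arrays per group), and the change between ages was -2.33 ± 0.16 (limma adjusted p = 0.000562 for the test of that change). It was called under each of the 15 alternatives, with values from -2.51 to -2.15 and adjusted p from 6.43e-05 to 0.00883. Among the alternative activation genes named for their calls, 5 also had a called change of the genotype difference between ages (limma). It was -2.11 ± 0.43 for Irf4 (adjusted p = 0.0428), higher in KO at both ages. It was -3.02 ± 0.42 for Mgl2 (adjusted p = 0.0104) and -1.13 ± 0.11 for the lectin gene Clec10a (adjusted p = 0.00251), both called higher in KO at day 2 and not called at day 11. It was -3.35 ± 0.37 for Ccl17 (adjusted p = 0.00418) and -1.84 ± 0.21 for the chemokine gene Ccl22 (adjusted p = 0.00481), both lower in KO at day 11 and higher in KO at day 2. These 5 changes were not tried under the alternatives. Groups of 2 arrays are too small to test for single outlying arrays within a group. KO day 2 replicate 1, which had the highest interferon median, stayed in the main fit.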

How the results depend on the processing

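The calls of Chil3 and Ear6 between genotypes at day 2, of Ear6 at day 11, of Chil3 and Rnase2a with age in KO and of Rnase2a with age in WT kept their direction and stayed under the threshold in each alternative in which the gene was tested. With only genes above the median signal, Chil1 and Ear6 were not tested, and 1 member was called at day 2 and 0 at day 11. With only the arrays of the groups compared, 2 members were called between genotypes at day 11, the second being Chil3, 2 at day 2 and 2 with age in KO, the Chil1 calls being lost (1.05, adjusted p = 0.0506 and -1.05, adjusted p = 0.0815). The count of all genes with age went to 1466 in KO (2915 with all arrays) and 1581 in WT (996 with all arrays). With Xist as a covariate, 487 genes were called with age in WT and 222 for the change of the genotype difference (615 without it), and the Chil1 calls were lost (adjusted p = 0.0639 at day 2 and 0.0778 with age in KO). The trend and robust prior ended the Chil1 call with age in KO (adjusted p = 0.0524). Leaving out single arrays gave 1 to 2 members called at day 11, 2 to 3 at day 2, 2 to 3 with age in KO, 1 to 2 with age in WT and 0 to 2 for the change of the genotype difference. The counts of all genes ranged from 2059 to 3760, 2223 to 3605, 1541 to 2985, 233 to 1292 and 197 to 942 in the same order. Counts fell by over 1.5 times without WT day 11 replicate 1 (day 11), either WT day 2 array (day 2), KO day 2 replicate 1 or KO day 11 replicate 2 (age in KO), and any 1 WT array (age in WT). For the change of the genotype difference they did so when any 1 of the 4 WT arrays was left out, or KO day 11 replicate 2, and the count was highest without KO day 2 replicate 2. The sign of Rnase2a between genotypes at day 11 turned without KO day 11 replicate 1 (0.55) and without WT day 11 replicate 2 (0.144), with a range of -0.782 to 0.55 over arrays left out. That of Ear6 with age in WT turned without WT day 2 replicate 2, with a range of -0.0125 to 0.0495, and none of these was called. The cause was not tested.

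The replicate block, fitted although the numbers share no known litter or day, left the members called at 1 at day 11, 3 at day 2, 3 with age in KO, 2 with age in WT and 0 for the change, and all genes at 3415, 3692, 2823, 975 and 558. It ended 3 calls among other named genes. Of 618 values of those genes under the same alternatives, which were added after seeing the data, 541 kept their call and 77 lost it, and none changed direction.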
